A study of Mus musculus with 16 samples.

Results

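The genes described here encode components of Polycomb repressive complex 1 (PRC1), and 9 of them were taken from the 21851 protein-coding genes of the annotation by name: Bmi1, Pcgf1, Pcgf2, Ring1, Rnf2, Cbx2, Cbx7, Cbx8 and Phc2. All 9 were found in GENCODE M21 on the mm10 build. Each gene was read over its body with 5 kb on either side (its window) and at its promoters, the stretches reaching 1 kb to either side of a protein-coding start site. H3K4me3, H3K27me3 and H2AK119ub1 were profiled by chromatin immunoprecipitation sequencing in hematopoietic stem cells (HSCs) sorted from bone marrow as Lin- cells that were Sca-1+, c-kit+ and CD150+ and lacked IL-7 (as labelled), CD34, CD48 and Flt3 staining. All mice were C57BL/6, untreated as far as the labels state. The young mice were 10 weeks old and the aged mice 20 months old, and no other allele or agent was given for either group. The 16 libraries form 8 groups of 2 (3 marks and an input at each age). Peaks are available as 1 list per mark and age, so the 6 lists carry no replicate values and no difference between ages below has a test or an error.

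PRC1 places a single ubiquitin on a lysine near the end of histone H2A, the mark read here as H2AK119ub1. RING1 and RNF2 (RING1B) are the ubiquitin ligases, each paired with 1 PCGF protein, and BMI1, PCGF1 and PCGF2 are such partners. In canonical PRC1 a CBX protein binds H3K27me3, the mark laid down by the partner complex PRC2, and a PHC protein links complexes to one another. H3K4me3 marks the start sites of active or poised genes. BMI1 is known for its need in HSC self-renewal, and CBX7 and CBX8 have been set against each other in HSC self-renewal and differentiation.

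The lists differ in size, which bears on every count between the ages. The H3K4me3 lists hold 11371 peaks in young and 6723 in aged HSCs, the H3K27me3 lists 63142 and 20419 regions, and the H2AK119ub1 lists 2593 and 17768 regions. Read totals per library are not in the lists. For H3K4me3 the read pileup of each peak, the reads stacked at its summit, was recovered from its fold enrichment and p-value. The median peak had a pileup of 20.0 reads in young and 19.0 in aged HSCs. The peaks at the 9 genes and in their windows had pileups of 15 to 24 reads, so that each summit rests on few reads. Reads given for single peaks below are these pileups and not all reads in the peak. Of the 3 genes whose products were selected for in the sort (Kit, Ly6a and Slamf1), 0 had an H3K4me3 promoter peak in young and 1, Kit, in aged HSCs. Of the 4 whose products were selected against (Cd34, Cd48, Flt3 and Il7r), 1, Cd34, had one in young and 0 in aged HSCs. The lists thus leave several of the defining genes of the sorted cells without an H3K4me3 peak.

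Promoter sequences show how the start sites of these genes differ in CpG content, the base pair step that marks CpG islands. RefSeq promoter sequences (GRCm38.p6, the same coordinates as mm10), from 250 bases before to 50 bases after a start, were matched for 7 of the 9 genes, in 9 entries. Those for Pcgf1 and Cbx2 were not used. Shown are promoters with a Polycomb mark within 1 kb of the start (Bmi1, Pcgf2, Cbx8). No H3K27me3 or H2AK119ub1 region overlapped the printed bases of Bmi1, Pcgf2 or Cbx8. Also shown are those with H3K4me3 at both ages and no Polycomb mark (Rnf2 and the last start site of Phc2). That of Cbx7 was chosen after its values were seen because it is CpG-rich yet had no promoter peak in any list. Each sequence is read 5′ to 3′ on the gene's strand, and capitals mark CpG:

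Bmi1 (chr2:18676768-18677067, + strand, 23 CpG): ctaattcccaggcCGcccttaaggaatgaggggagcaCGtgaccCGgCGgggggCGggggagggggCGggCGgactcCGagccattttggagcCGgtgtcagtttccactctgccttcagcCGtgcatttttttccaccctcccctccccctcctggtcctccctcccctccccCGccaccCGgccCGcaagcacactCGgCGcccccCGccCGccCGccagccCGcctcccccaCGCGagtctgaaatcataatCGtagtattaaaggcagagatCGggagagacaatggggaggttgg

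Pcgf2 (chr11:97699599-97699898, - strand, 10 CpG): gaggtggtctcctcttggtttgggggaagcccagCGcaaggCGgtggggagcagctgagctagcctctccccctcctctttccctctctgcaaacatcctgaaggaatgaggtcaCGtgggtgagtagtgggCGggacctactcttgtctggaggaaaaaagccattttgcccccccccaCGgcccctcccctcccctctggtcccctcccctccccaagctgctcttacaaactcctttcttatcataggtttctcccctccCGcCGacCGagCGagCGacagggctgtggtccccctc

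Cbx8 (chr11:119040864-119041163, - strand, 24 CpG): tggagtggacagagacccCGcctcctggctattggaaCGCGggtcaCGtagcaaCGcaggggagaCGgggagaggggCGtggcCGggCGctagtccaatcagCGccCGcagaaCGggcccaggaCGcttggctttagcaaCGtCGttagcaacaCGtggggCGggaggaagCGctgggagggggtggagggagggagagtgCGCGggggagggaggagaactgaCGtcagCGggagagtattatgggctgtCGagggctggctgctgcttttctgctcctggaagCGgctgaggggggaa

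Rnf2 (chr1:151500942-151501241, - strand, 30 CpG): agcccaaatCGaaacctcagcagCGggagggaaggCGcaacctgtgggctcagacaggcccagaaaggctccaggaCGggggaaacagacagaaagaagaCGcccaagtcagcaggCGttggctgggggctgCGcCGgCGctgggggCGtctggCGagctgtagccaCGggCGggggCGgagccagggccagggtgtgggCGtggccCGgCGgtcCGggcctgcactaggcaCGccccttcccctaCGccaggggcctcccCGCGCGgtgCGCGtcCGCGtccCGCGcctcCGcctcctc

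Phc2 (chr4:128727321-128727620, + strand, 45 CpG): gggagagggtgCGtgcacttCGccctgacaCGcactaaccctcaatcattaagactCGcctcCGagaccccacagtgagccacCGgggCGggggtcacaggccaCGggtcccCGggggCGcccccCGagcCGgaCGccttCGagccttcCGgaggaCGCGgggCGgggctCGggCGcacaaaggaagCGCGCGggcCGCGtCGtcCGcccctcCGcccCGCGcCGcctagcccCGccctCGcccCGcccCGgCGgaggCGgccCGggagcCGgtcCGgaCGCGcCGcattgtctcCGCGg

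Cbx7 (chr15:79932597-79932896, - strand, 33 CpG): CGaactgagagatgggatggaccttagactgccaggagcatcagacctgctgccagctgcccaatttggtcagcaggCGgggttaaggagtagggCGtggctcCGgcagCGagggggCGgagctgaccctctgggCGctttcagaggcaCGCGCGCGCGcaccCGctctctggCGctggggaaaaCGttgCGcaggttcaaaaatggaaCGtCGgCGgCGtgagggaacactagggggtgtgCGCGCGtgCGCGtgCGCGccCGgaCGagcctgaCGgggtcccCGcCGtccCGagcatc

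The median over 32851 promoters of this table was 7 CpG in 300 bases, and 8 of the 9 entries lay above it. The exception was the middle start site of Phc2, which had 2 CpG and no peak of any list within 1 kb. The Ring1 promoter had 37. The GC box (GGGCGG, either strand) was found in 8 of 9 entries against 35.7% of all promoters, CCAAT in 4 of 9 against 37.4%, and the E-box CACGTG in 4 of 9 (Bmi1, the first start of Phc2, Pcgf2 and Cbx8) against 7.15%. These are matches of letters only. GGGCGG and CACGTG both contain a CpG, and the shares over all promoters are not matched for CpG content. The 9 entries come from 7 genes.

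At promoters, H3K4me3 was found at 5 of the 9 genes in young HSCs (Pcgf1, Ring1, Rnf2, Cbx8 and Phc2) and at 6 in aged HSCs (Bmi1, Pcgf2, Rnf2, Cbx2, Cbx8 and Phc2). The shares of all protein-coding genes were 33.8% and 23.3%. H3K27me3 lay at 3 promoters in young HSCs (Bmi1, Cbx2 and Cbx8, against 16.0% of all genes) and at 1, that of Cbx8, in aged HSCs (8.24%). H2AK119ub1 lay at 0 promoters in young HSCs (1.91%) and at 4 in aged HSCs (Pcgf1, Pcgf2, Cbx2 and Cbx8, against 14.0%), and all 4 had it in aged HSCs only, as did 12.5% of all genes. With 9 genes, 1 gene is 11.1% of the list. With lists of equal size, aged promoter H2AK119ub1 was left at 1 member, Cbx8, and when at least 50% of the peak or promoter had to be shared, young promoter H3K27me3 was left at 0. Shares of all genes were not computed for these alternatives. The Polycomb marks thus fell on part of the list, and Ring1, Rnf2, Cbx7 and Phc2 had neither at a promoter. With H3K4me3 counted too, Cbx8 had a promoter peak in 5 of 6 lists and Cbx7 in none. The lack of any promoter peak was shared by 9826 other genes (45.0%).

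**Figure D1:**
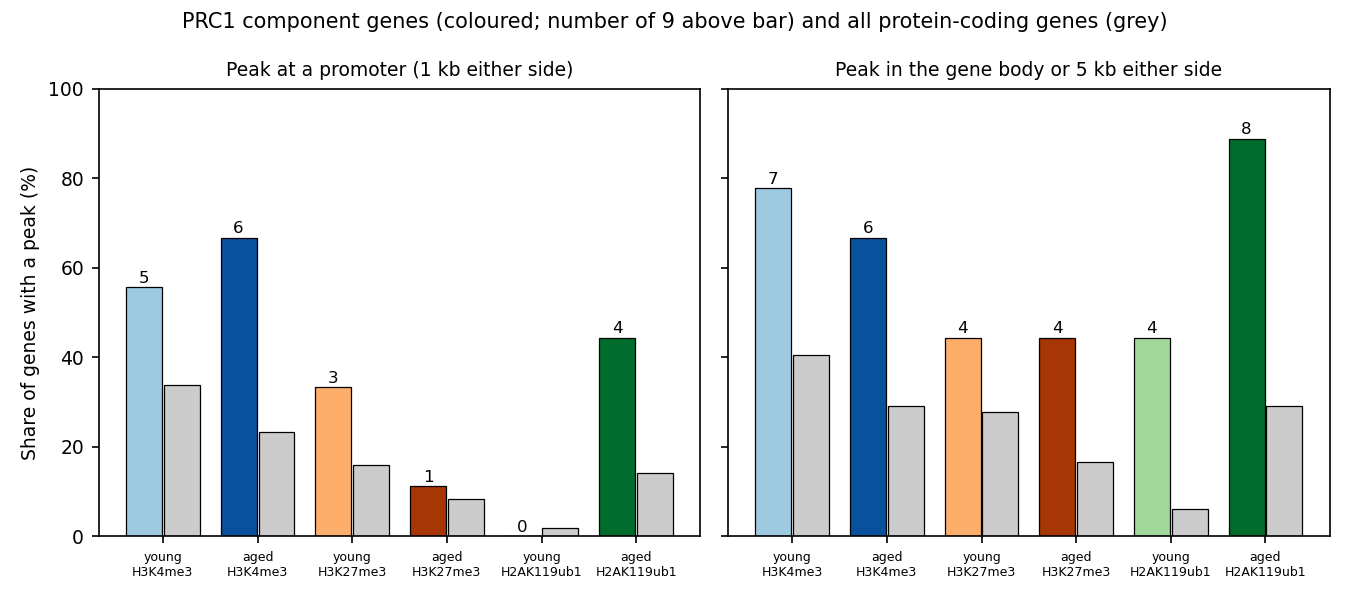
Share of genes (%) with a peak at a promoter (left) and in the gene window (right) in each of the 6 lists. Coloured bars are the 9 PRC1 component genes with their number above the bar, and grey bars are all 21851 protein-coding genes. At 8 of 9, the window count of aged H2AK119ub1 stands highest, beside 29.0% of all genes. With lists of equal size it was 5, and no share of all genes was computed for that setting.

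Over the windows, H3K4me3 was found at 7 genes in young and 6 in aged HSCs (40.6% and 29.0% of all genes). H3K27me3 was found at the same 4 genes at both ages, Bmi1, Pcgf1, Cbx2 and Cbx8, against 27.8% of all genes in young HSCs, 16.5% in aged HSCs and 15.8% at both. The aged call at Pcgf1 rests on regions nearer to other genes and was absent when each region was given to its nearest start site, which left 3 members, and over gene bodies alone 2 members had H3K27me3 at each age. H2AK119ub1 was found at 4 genes in young HSCs (Bmi1, Cbx2, Cbx8 and Phc2, against 5.99%) and at 8 in aged HSCs, all but Ring1 (29.0%). With lists of equal size the young H3K4me3 count was 4 and the aged H2AK119ub1 count 5, and over gene bodies alone both were 4. Shares of all genes were not computed for these alternatives, so those given here do not serve as their background. Both Polycomb marks shared a window at 3 genes in young HSCs (5.23% of all genes) and at the 4 genes with H3K27me3 in aged HSCs (11.4%). The young H2AK119ub1 regions counted for Cbx2 were also counted for Cbx8 and lay nearer to the Cbx8 start. Giving each region to its nearest start site left 2 members with young H2AK119ub1, Bmi1 and Cbx8. The windows of the 9 genes had a median length of 19612 bp, against 27380 bp for all genes, and the median number of start sites was 3 against 2.

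The length under peaks went down for H3K27me3 and up for H2AK119ub1, as it did over all genes. The 9 windows, joined where they overlap, span 322616 bp. H3K27me3 covered 19879 bp of them in young and 8638 bp in aged HSCs, a ratio of 0.435 against 0.26 over the windows of all genes. The number of regions hardly moved (14 and 13), while over all genes it was 0.361 times as high in aged HSCs. At a −log10 q of at least 2, however, the counts were 10 and 4, and with lists of equal size they were 9 and 13. The median region here was 1560 bp wide in young and 591 bp in aged HSCs, against 417 and 381 bp over the windows of all genes. H2AK119ub1 covered 2804 bp in 6 regions in young and 12360 bp in 24 regions in aged HSCs, a ratio of 4.41 for length against 7.9 over all genes. With lists of equal size the aged regions numbered 9 and the difference in length was 3883 bp instead of 9556 bp. H3K4me3 covered 2901 bp in 9 peaks and 2104 bp in 7 peaks. That last direction turned when the lists of both ages were limited to the same number of peaks, where H3K4me3 covered 664 bp more in aged HSCs, and over the gene bodies alone, where it covered 75 bp more.

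**Figure D2:**
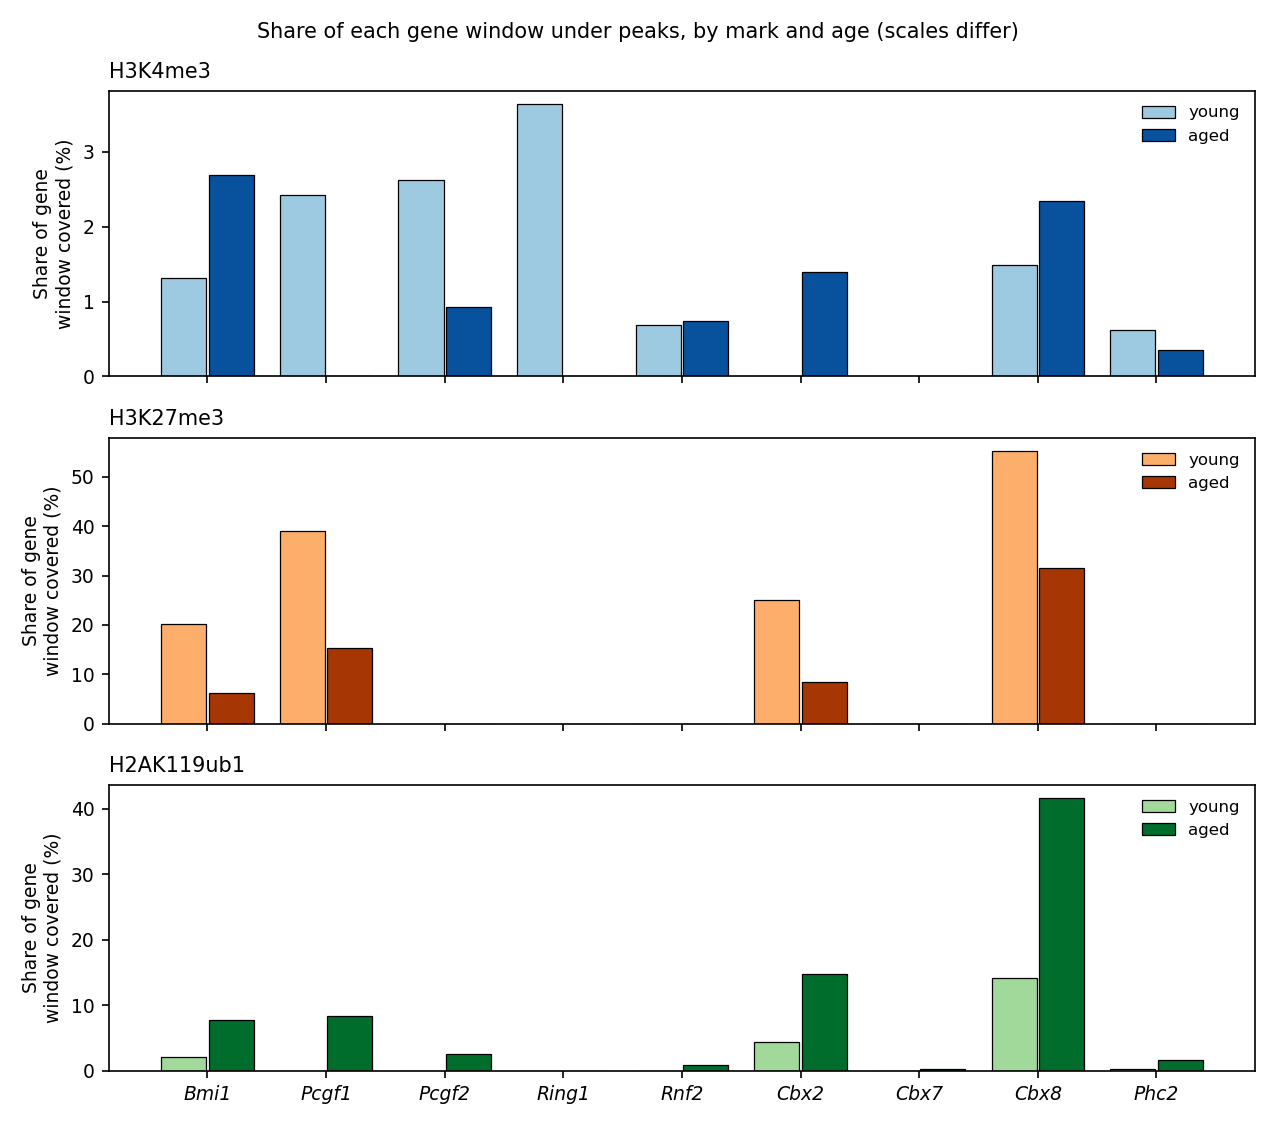
Share of each gene's window (%) lying under peaks of H3K4me3, H3K27me3 and H2AK119ub1 in young (pale) and aged (dark) HSCs, each value from 1 list with no error. The 4 genes with H3K27me3 each have less of it in aged HSCs, and H2AK119ub1 in aged HSCs reaches 41.6% of the Cbx8 window.

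H3K27me3 in aged HSCs lay over its young regions at these genes. All 13 aged regions overlapped a young one, where 72.0% of aged regions over all windows did, and 9 of the 14 young regions overlapped an aged one, against 18.4%. By their median the H3K27me3 regions here were wider than those over all windows, and an overlap of 1 bp counted. Several of the 13 aged regions lay over the same young region, as at Cbx8, so they are not separate cases. Of the 6 young H2AK119ub1 regions, 4 overlapped an aged one (66.7%, against 53.5% over all windows). Of its 24 aged regions, in a list many times longer, 3 overlapped a young one (12.5%, against 7.56%) and 11 overlapped a young H3K27me3 region (45.8%, against 45.2%). The 4 genes with H3K27me3, whose windows span 60607 bp, held 15 of the 24 aged regions, 231 to 2339 bp wide, and the other 5 genes, over 262009 bp, held 9 regions of 200 to 428 bp. These come to 247 and 34.3 regions per Mb, and over all genes with and without H3K27me3 in young HSCs to 17.9 and 5.83, so that a higher density beside H3K27me3 was found over all genes as well.

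Among the ubiquitin ligases, neither Ring1 nor Rnf2 had H3K27me3 at either age. Ring1 (chr17:34020792-34024680) had a single peak in all 6 lists, an H3K4me3 peak in young HSCs 39 to 544 bp upstream of its start site. It was 506 bp wide, had 17 reads at 3.83-fold enrichment, and overlapped the annotated Mir219a-1. No peak of any list lay in the Ring1 window in aged HSCs.

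Rnf2 (chr1:151458004-151500955) had H3K4me3 at its promoter at both ages, on opposite sides of the start. The young peak lay 160 to 521 bp upstream (24 reads, 4.74-fold) and the aged peak 40 to 430 bp downstream (17 reads, 3.98-fold), each measured to the nearest of 3 start sites. The Rnf2 promoter shown above lies between the summits of these peaks. A 428-bp H2AK119ub1 region at 3.19-fold lay 2118 bp upstream in aged HSCs.

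**Figure D3:**
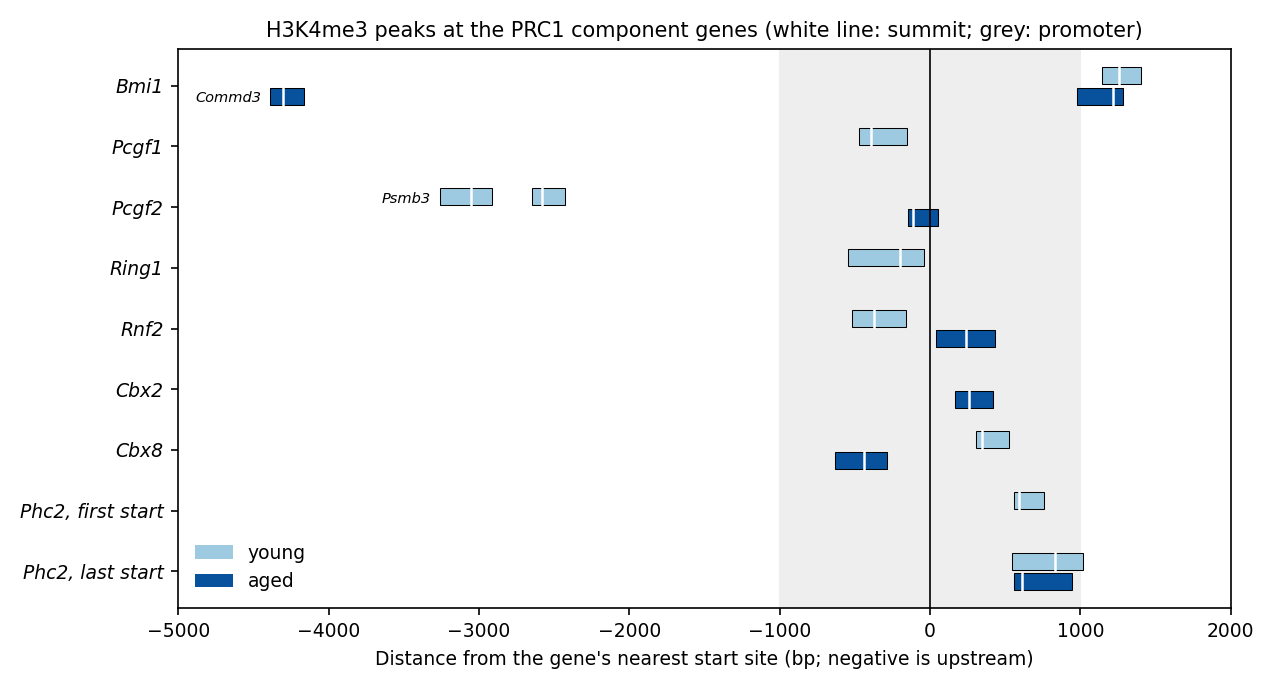
H3K4me3 peaks in the windows of the 8 members that have any, drawn as bars by distance (bp) from the member's nearest start site, young pale and aged dark, with the summit as a white line and the promoter shaded grey. Phc2 has a row for each of its start sites with a peak, and labels name the neighbour whose start site is nearest. Rnf2 and Cbx8 show young and aged peaks on opposite sides of the start, and the peaks of Bmi1 straddle the edge of the promoter.

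Of the 3 genes with promoter H3K4me3 at both ages (17.5% of all genes), peaks of the ages overlapped at Phc2 alone. Over all genes with promoter H3K4me3 at both ages they overlapped at 80.4%. Promoter H3K4me3 in young HSCs only was found at Pcgf1 and Ring1 (16.3% of all genes), and in aged HSCs only at Bmi1, Pcgf2 and Cbx2 (5.78%). With as many peaks taken from the young list as the aged list holds, the best by q-value, the young promoter count fell from 5 to 2 (Rnf2 and Phc2). How far the share of all genes fell with it was not computed. The young peaks of Pcgf1, Ring1 and Cbx8 were thus among the weaker ones of the longer list. A −log10 q as high was reached by 64.8%, 75.2% and 95.6% of young peaks, in that order. The aged list was not shortened there. For the aged peaks of Cbx2, Pcgf2 and Bmi1 the shares of their own list were 85.8%, 63.8% and 21.1%. Bmi1 depended on the promoter's edge, as given next.

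Bmi1 (chr2:18677018-18686629), the PCGF partner best known in HSCs, had H3K4me3 and H3K27me3 together inside the gene. The young H3K4me3 peak lay 1145 to 1402 bp downstream of the first start site (19 reads, 4.25-fold) and the aged peak 978 to 1282 bp downstream (21 reads, 4.86-fold). The peaks overlapped by 138 bp, yet only the aged peak reached the promoter, by 23 bp. With promoters of 2 kb on either side both ages counted. Around them H3K27me3 spanned 1667 bp at 4.03-fold in young HSCs and 398 bp at 3.01-fold in aged HSCs, the latter wholly within the former and just outside the promoter. The 138 bp shared by the H3K4me3 peaks lay under H3K27me3 at both ages as well and had 6 CpG:

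Bmi1 shared stretch (chr2:18678163-18678300, + strand): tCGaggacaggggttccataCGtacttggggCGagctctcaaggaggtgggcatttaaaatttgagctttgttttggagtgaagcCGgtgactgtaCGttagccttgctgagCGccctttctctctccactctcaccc

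No H2AK119ub1 region lay over the Bmi1 gene body at either age. Past its 3′ end, H2AK119ub1 covered 421 bp in 1 region in young HSCs and 1523 bp in 3 regions in aged HSCs. A H3K27me3 region there spanned 2667 bp in young and 2137 bp in aged HSCs, nearly as wide, and the protein-coding start site nearest to its centre was that of Spag6, not of Bmi1. Of it, 1165 and 807 bp lay in the window. Another young H3K27me3 region past the 3′ end, 1122 bp wide with its centre nearest to a Bmi1 start, overlapped no aged one. Over the whole window H3K27me3 covered 3954 bp (20.2%) in young and 1205 bp (6.14%) in aged HSCs. Another H3K4me3 peak, in aged HSCs only, lay at the start of Commd3, the gene just upstream.

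Pcgf1 (chr6:83077869-83080855), the partner of RNF2 in the variant complex with KDM2B and BCOR, had H3K27me3 on both sides of the gene but not within 1 kb of a start site. With promoters of 2 kb, or with start sites of all transcripts, a 206-bp young region 1118 bp upstream counted as promoter H3K27me3. The window held 5077 bp (39.1%) in 5 young regions and 1987 bp (15.3%) in 4 aged regions. The widest young regions, 4064 and 3297 bp, lay over the promoters of the neighbouring homeobox genes Tlx2 and Lbx2, with 509 and 2148 bp in the window. A young region of 1718 bp at 4.24-fold lay wholly in the window, 2992 to 4709 bp upstream, with its centre nearest to a Pcgf1 start. An aged region of 462 bp lay within it. Giving each region to its nearest start site left Pcgf1 with 2420 bp of H3K27me3 in young and 0 bp in aged HSCs. The aged regions were 225 to 833 bp wide, and all 4 had their centre nearest to the start site of Tlx2 or Lbx2. H2AK119ub1 was listed in aged HSCs only, in 3 regions of 468 to 1188 bp. The 1188-bp region lay at the Lbx2 promoter, with 16 bp of it in the Pcgf1 window. The 468-bp region lay 826 to 1293 bp upstream of the Pcgf1 start at 3.41-fold and was the one that reached the Pcgf1 promoter. It overlapped that young H3K27me3 region by 176 bp and no aged one. H3K4me3 was found in young HSCs only, 155 to 470 bp upstream (19 reads, 3.73-fold).

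**Figure D4:**
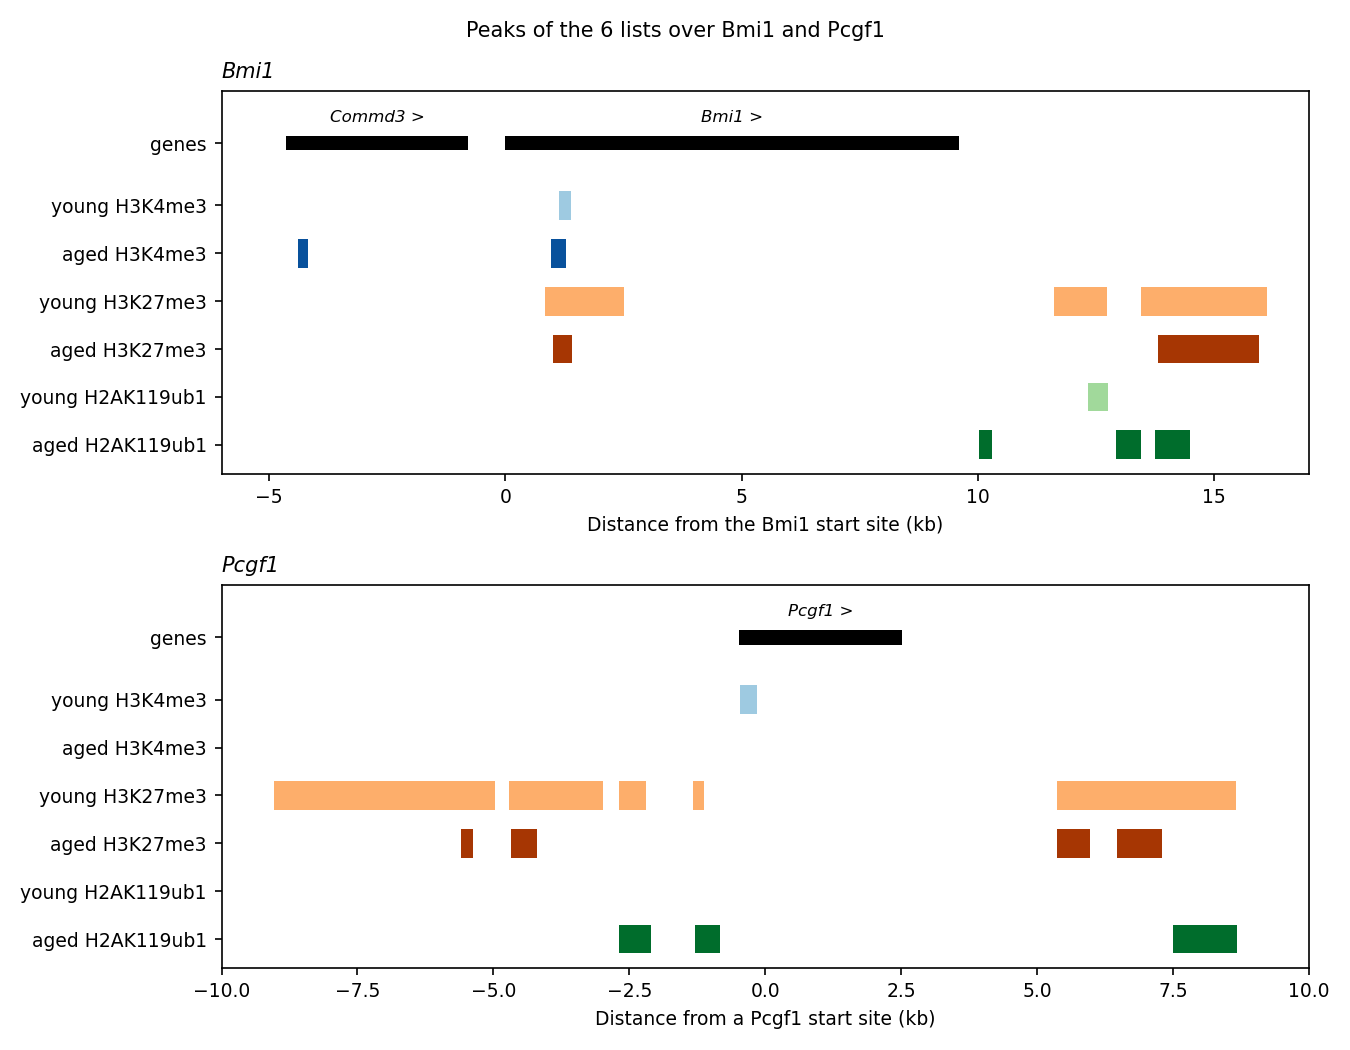
Peaks of the 6 lists over Bmi1 and Pcgf1 by distance (kb) from a start site of each gene, bars drawn to scale and genes in black with their direction. At Bmi1 the H3K4me3 and H3K27me3 peaks lie together inside the gene, and at Pcgf1 the H3K27me3 regions flank the gene.

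Pcgf2 (chr11:97688823-97700497), also known as Mel18 and a close relative of Bmi1, had no H3K27me3 at either age. In aged HSCs a 200-bp H3K4me3 peak lay over one of its 5 start sites (20 reads, 3.65-fold), and 2 H2AK119ub1 regions of 248 and 318 bp lay at its promoters at 3.60-fold and 3.04-fold. The marks did not overlap there. In young HSCs the only peaks in its window were 2 H3K4me3 peaks at the promoter of Psmb3, the neighbour upstream, with 16 and 24 reads.

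The CBX genes were the most and the least marked. Cbx7 (chr15:79915807-79971119), the main CBX protein of HSCs, had 0 peaks of H3K4me3 or H3K27me3 over a window of 65313 bp at either age. Its only peak was a 200-bp H2AK119ub1 region at 2.99-fold inside the gene in aged HSCs, with a −log10 q of 1.18 near the lowest value of that list, 1.07. The 33 CpG of its promoter are a count that 8.56% of promoters reach, so an H3K4me3 peak was missing at a CpG-rich start.

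Cbx2 and Cbx8 stand tail to tail on chromosome 11, 5034 bp apart. Their windows overlap, and regions between them were counted once in the totals above. Cbx8 (chr11:119036305-119040969) was the most covered member. H3K27me3 lay over 8095 bp (55.2%) of its window in young and 4641 bp (31.6%) in aged HSCs, and H2AK119ub1 over 2068 bp (14.1%) and 6096 bp (41.6%). In young HSCs a single H3K27me3 region of 7488 bp at 4.02-fold (chr11:119041386-119048873) began 417 bp upstream of the start site and was the 214th widest of its list. In aged HSCs 6 regions of 200 to 1693 bp, at 3.19-fold to 3.66-fold, covered 4963 bp (66.3%) of it. The young region itself set the bounds here, so the aged H3K27me3 share could not exceed the young one. The last aged region ran past the far edge, to chr11:119049681. H2AK119ub1 went the other way over the same stretch, from 1768 bp (23.6%) in 5 regions of 301 to 458 bp to 4605 bp (61.5%) in 6 regions of 334 to 1888 bp.

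With promoters of 1 kb on either side, that of Cbx8 was the only one of the 9 with H3K4me3 and H3K27me3 at the same age, and it had both at both ages (2.96% of all genes did at the young age and 0.792% at the aged). With 2 kb, Bmi1 had both marks at both ages too, Pcgf1 in young and Cbx2 in aged HSCs, and with start sites of all transcripts Bmi1 again had both at both ages and Pcgf1 in young HSCs. With lists of equal size the young H3K4me3 peak of Cbx8 was absent. That peak lay 304 to 522 bp downstream of the start, the thinnest of the set with 15 reads at 3.23-fold, and did not overlap H3K27me3. The aged peak lay 289 to 632 bp upstream with 22 reads at 5.08-fold, overlapping the aged H3K27me3 region by 217 bp. That aged region was 231 bp wide with a −log10 q of 1.82, and was lost when a −log10 q of at least 2 was asked for. Peaks of all 3 marks in aged HSCs and the wide young H3K27me3 region met over 171 bp with 17 CpG:

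Cbx8 shared stretch (chr11:119041431-119041601, - strand): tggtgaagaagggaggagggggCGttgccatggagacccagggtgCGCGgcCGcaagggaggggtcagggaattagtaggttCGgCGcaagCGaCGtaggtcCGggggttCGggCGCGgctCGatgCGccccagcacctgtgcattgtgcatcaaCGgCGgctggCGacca

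Cbx2 (chr11:119022962-119031270) had H3K27me3 upstream of its start in young HSCs, in 3 regions of 338 to 1453 bp, of which the widest reached to 352 bp from the start and covered 32.4% of the promoter. In aged HSCs a single region of 805 bp at 3.21-fold was listed there, ending 1448 bp from the start and outside the promoter. At the promoter the aged lists had a 534-bp H2AK119ub1 region at 2.96-fold, all of it within the young H3K27me3 outline, and a 256-bp H3K4me3 peak 165 to 420 bp downstream of the start (16 reads, 3.76-fold). The H2AK119ub1 region had a −log10 q of 1.42. Cbx2 had no H3K4me3 peak in young HSCs.

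Between the 3′ ends of Cbx2 and Cbx8, H3K27me3 spanned 2905 bp in young HSCs, reaching into Cbx8, and 2 regions of 297 and 1143 bp within it in aged HSCs. H2AK119ub1 was found over that young region at both ages, in 2 regions of 239 and 997 bp and then in 1 region of 2339 bp, the 83rd widest of the aged list. A further aged region of 306 bp lay between the 3′ ends outside H3K27me3. The whole stretch, from 5 kb before Cbx2 to the far end of the wide young region beyond the Cbx8 start, spans 30912 bp. Its far edge was thus set by the young list, and the last aged H3K27me3 region crossed it. H3K27me3 covered 44.5% of it in young and 23.3% in aged HSCs, in 6 and then 9 regions, and H2AK119ub1 9.72% and 27.1%, in 7 and then 11 regions. More, shorter H3K27me3 regions covered less of this stretch in aged HSCs. The number of regions depends on how close ones are split, since the aged regions beside the Cbx8 start lay less than 1 kb apart. With regions joined within 1 kb, the 9 windows held 7 H3K27me3 regions at each age.

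**Figure D5:**
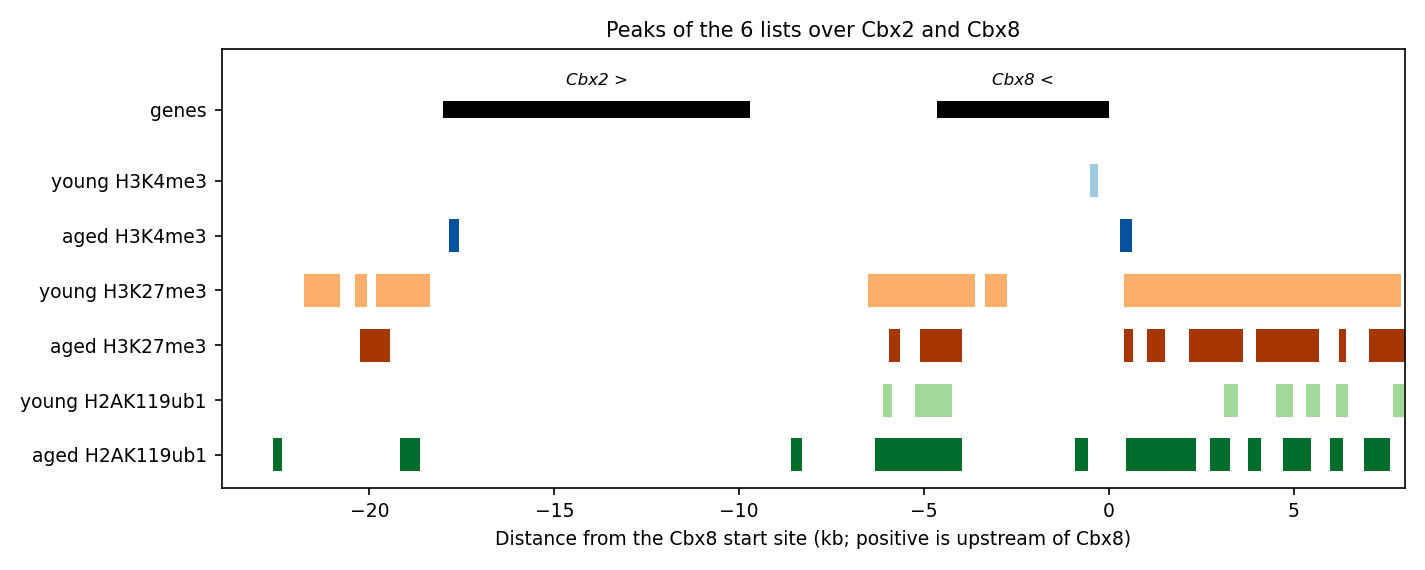
Peaks of the 6 lists over Cbx2 and Cbx8 by distance (kb) from the Cbx8 start site, positive values lying upstream of Cbx8, with genes in black and their direction marked. The single young H3K27me3 region of 7488 bp beside the Cbx8 start is met by 6 shorter aged regions. Each of these lies less than 1 kb from the next, and aged H2AK119ub1 regions lie over the same stretch. The map ends at the far edge of that young region, which the last aged H3K27me3 region crosses.

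Phc2 (chr4:128654702-128752881), the PHC member of the set, had no H3K27me3 over a window of 108180 bp. H3K4me3 lay downstream of its last start site at both ages, 546 to 1015 bp in young (22 reads, 4.89-fold) and 560 to 945 bp in aged HSCs (18 reads, 4.20-fold), with the aged peak wholly inside the young one. This was the start site with 45 CpG, a count that 1.93% of promoters reach. Another young peak, 200 bp wide, lay 559 to 758 bp downstream of the first start site (17 reads). H2AK119ub1 was found in 1 region of 315 bp in young and 5 regions of 200 to 419 bp in aged HSCs, none at a promoter and none overlapping between the ages.

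Other PRC1 genes were taken as a list of 17 chosen by role. At their promoters, H3K4me3 was found at 12 of 17 in young and 8 in aged HSCs (33.8% and 23.3% of all genes). H3K27me3 was found at 2 (Scml2 and Auts2) and 1 (Auts2), against 16.0% and 8.24%. H2AK119ub1 was found at 0 and 6 (Pcgf6, Rybp, Kdm2b, Bcor, Bcorl1 and Auts2), against 1.91% and 14.0%. The 6 include subunits of variant complexes, namely KDM2B and BCOR with PCGF1, and RYBP. H3K4me3 was young only at 6 of the 17 and aged only at 2 (Pcgf5 and Phc3), against 16.3% and 5.78% of all genes.

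Of 12 PRC2 genes, which encode the complex that sets H3K27me3, 6 had promoter H3K4me3 in young HSCs (Ezh2, Suz12, Jarid2, Aebp2, Mtf2 and Phf1) and 4 in aged HSCs (Eed, Rbbp4, Jarid2 and Mtf2). The core subunit genes Ezh2 and Suz12 had it in young HSCs only and Eed in aged HSCs only. Promoter H3K27me3 was found at Epop alone, at both ages, and promoter H2AK119ub1 at Epop and Phf19 in aged HSCs. Over all genes the young and aged shares were 33.8% and 23.3% for H3K4me3 and 16.0% and 8.24% for H3K27me3. For aged H2AK119ub1 the share was 14.0%. Over the Epop window H3K27me3 covered 49.9% in young and 6.37% in aged HSCs.

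Genes with the same pattern of presence over the 6 promoter lists were counted for the members with promoter peaks in at least 2 lists. The pattern of Rnf2 and Phc2, H3K4me3 at both ages and nothing else, was shared by 3282 genes (15.0%), and that of Pcgf1 by 299. The pattern of Cbx8 was shared by 70 genes (0.32%), that of Pcgf2 by 134, and those of Bmi1 and Cbx2 by 42 each (0.192%). By the distance between the promoter lengths covered in the 6 lists, the nearest gene was Cav1 for Cbx8 (208 bp), Mgarp for Cbx2 (114 bp), Tmem56 for Pcgf2 (1.0 bp), Socs3 for Pcgf1 (25.0 bp), Rcan3 for Rnf2 (5.1 bp) and Ddx60 for Phc2 (12.2 bp). For Bmi1 it was Clrn2 (23.0 bp), which does not share its pattern.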

How the data were processed

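Peaks were taken as the authors deposited them, 1 list per mark and age, aligned with Bowtie2 to mm10 and called with MACS2 2.2.6 per the submitters' processing notes. Each deposited peak has a fold enrichment over background (a ratio), a −log10 p-value and a −log10 q-value. Peak names carry a q cutoff of 0.05 (narrow, H3K4me3) or 0.1 (broad, H3K27me3 and H2AK119ub1). Names in the H3K4me3 lists hold 2 library numbers and those in the broad lists 1, so which replicates entered the broad lists was not settled, and the depth of each library is unknown. The authors sorted cells of pooled mice.

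Genes and start sites came from GENCODE M21: basic protein-coding transcripts on the main chromosomes, 21851 genes and 41438 start sites. An overlap of 1 bp counted. Lengths were joined before summing, and peaks in overlapping windows counted once. Each H3K4me3 pileup was the whole number of reads at the summit giving both the deposited fold and p-value. The overlap code was tested on simulated intervals. No test between ages was made, since each list is 1 value. Counts were repeated under other thresholds, list sizes, overlaps and definitions, for the 9 genes only and not for all genes. Every peak at the 9 genes was read. Neighbours were named where a peak overlapped their promoter or their start site was nearest, and genes of 2 other lists (17 PRC1, 12 PRC2, with 1 further PRC1 gene not reported here) where a promoter had H3K27me3 or H2AK119ub1, or to list those with H3K4me3. Like-pattern genes were the nearest by Euclidean distance over 6 covered promoter lengths. Members and lists were chosen with earlier results of these data known. Python 3.11.15, pandas 2.3.3 and numpy 2.4.6 were used.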

Additional observations from a re-analysis of the deposited data

How the results depend on the processing

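No paired analysis was possible because each list holds 1 value per mark and age, and for the same reason no replicate could be left out. Of 102 recomputed summary values, 68 stayed within 1.5 times the reported value, 32 moved further and 2 reversed, and the cause was not tested unless the alternative's own construction shows it. With equal list sizes, the H3K4me3 length difference (aged minus young) reversed from -797 to 664 bp. The H2AK119ub1 difference was then 3883 bp, young H3K4me3 promoters and windows 2 and 4 members with 4 peaks, aged H2AK119ub1 promoters and windows 1 and 5 members with 9 regions, and young H3K27me3 had 9 regions. Over gene bodies alone the differences were 75 bp (H3K4me3, reversed), -2235 bp (H3K27me3) and 2461 bp (H2AK119ub1). Members with a peak there numbered 4 for young H3K4me3, 2 and 2 for young and aged H3K27me3, and 2 and 4 for young and aged H2AK119ub1, with 5, 3 and 2, and 2 and 9 peaks. At a −log10 q of at least 2, promoter H3K27me3 in aged HSCs was at 0 members, and 4 aged H3K27me3 regions, 3 young and 12 aged H2AK119ub1 regions were left. Asking for 50% overlap left 0 members with young promoter H3K27me3. Aged promoter H3K27me3 was at 3 members with promoters of 2 kb and at 2 with all transcripts' start sites. Assigning peaks to the nearest start site gave -449 bp for H3K4me3, 2 members with young H2AK119ub1 and 8 aged H3K27me3 regions. Joining within 1 kb gave 7 H3K27me3 regions at each age.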
